A study of Mus musculus with 8 samples.

Results

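Small nuclear, nucleolar and related RNAs are short noncoding RNAs that work inside ribonucleoprotein particles. They were collected here by symbol: every gene of the expression tables whose name starts with Snord, Snora, Scarna, Rnu or Rn7s, and in addition Rmrp, Rpph1 and Terc. This gave 126 of the 24454 genes listed. They comprised 74 C/D box small nucleolar RNAs (snoRNAs, Snord), 36 H/ACA box snoRNAs (Snora), 9 small Cajal body RNAs (scaRNAs, Scarna), 4 small nuclear RNAs (Rnu6, Rnu7, Rnu11 and Rnu12), the RNase MRP RNA (Rmrp), the RNase P RNA (Rpph1) and the telomerase RNA (Terc). No listed gene had a name starting with Rn7s, and 7SK and 7SL RNA were not analysed here.

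The study sequenced total RNA of the mouse mammary carcinoma line 4T1, which forms metastases in mice, in 8 libraries. The shMEK5 cells (2 libraries) carried a lentiviral short hairpin RNA against MEK5, the kinase encoded by Map2k5, and the shERK5 cells (3 libraries) carried one against ERK5, the kinase encoded by Mapk7 that MEK5 activates. The shCTRL cells (3 libraries) carried a non-targeting hairpin; all 3 lines were infected with lentivirus and selected with puromycin, and each target was represented by 1 hairpin. RNA was purified on RNeasy columns and ribosomal RNA was removed before strand-specific libraries were made without poly(A) selection, so RNAs without a poly(A) tail could be read.

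C/D box snoRNAs pair with ribosomal RNA and direct the methylation of riboses, and H/ACA box snoRNAs direct the conversion of uridines to pseudouridine, while scaRNAs guide the same reactions on spliceosomal RNAs in Cajal bodies. In mammals most snoRNAs are cut out of introns of a host gene after splicing, whereas Rpph1, Rmrp, Terc, Rnu11 and Rnu12 have promoters of their own. Rpph1 and Rmrp are the RNA components of the enzymes that trim the 5′ ends of transfer RNA precursors and process ribosomal RNA precursors, Terc carries the template for telomere synthesis, and Rnu11 and Rnu12 encode the U11 and U12 RNAs of the minor spliceosome.

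The sequences of 11 of these RNAs, as annotated by GENCODE on the mouse build GRCm38, show what tells the classes apart and which RNAs the results turn on. The first set holds 3 of the RNAs that have promoters of their own and differed between groups: Rnu11 (chr4:132270080-132270213, minus strand), Rnu12 (chr15:83149644-83149794, plus strand) and Terc (chr3:96414437-96414859, minus strand, bases 1 to 60 shown). Capitals mark AATTTTT, the start of the Sm protein binding site, in Rnu11 and Rnu12, and CTAACCC, in the template, in Terc.
Rnu11: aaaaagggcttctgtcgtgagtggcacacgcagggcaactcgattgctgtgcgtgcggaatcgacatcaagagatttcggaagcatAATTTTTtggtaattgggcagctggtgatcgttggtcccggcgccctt
Rnu12: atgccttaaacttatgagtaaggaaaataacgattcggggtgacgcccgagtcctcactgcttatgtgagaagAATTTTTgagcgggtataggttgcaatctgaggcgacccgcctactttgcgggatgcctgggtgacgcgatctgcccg
Terc: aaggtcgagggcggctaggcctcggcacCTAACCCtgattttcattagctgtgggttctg

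The second set holds C/D box snoRNAs under 100 nt that were lower in shERK5 cells than in shCTRL cells: Snord47 (chr1:161038082-161038158, plus strand, within Gas5), Snord2 (chr16:23108953-23109021, plus strand, within Eif4a2), Snord95 (chr11:48803139-48803206, plus strand, within Rack1), and Snord35a (chr7:45126346-45126435) and Snord32a (chr7:45127382-45127464), which both lie on the minus strand within Rpl13a. Capitals mark the first TGATG within the first 25 bases (C box) and the last CTGA within the last 20 bases (D box), the elements near the ends that define this class.
Snord47: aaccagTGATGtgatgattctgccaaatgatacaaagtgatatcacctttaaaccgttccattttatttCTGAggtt
Snord2: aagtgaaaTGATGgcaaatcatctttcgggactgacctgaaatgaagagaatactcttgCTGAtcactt
Snord95: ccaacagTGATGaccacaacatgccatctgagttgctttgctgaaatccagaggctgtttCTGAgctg
Snord35a: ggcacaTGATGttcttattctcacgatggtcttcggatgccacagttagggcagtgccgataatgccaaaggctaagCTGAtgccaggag
Snord32a: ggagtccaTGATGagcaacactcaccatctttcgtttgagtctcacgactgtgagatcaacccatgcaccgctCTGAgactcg

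The third set holds H/ACA box snoRNAs that moved in opposite directions: Snora17 (chr2:26639190-26639321, minus strand) was lower in both knockdowns, and Snora7a (chr6:115807975-115808114, minus strand, within Rpl32) and Snora81 (chr16:23110756-23110933, plus strand, within Eif4a2) were higher in shMEK5 cells. Capitals mark the ACA within the last 8 bases, and Snora81 as annotated holds none there.
Snora17: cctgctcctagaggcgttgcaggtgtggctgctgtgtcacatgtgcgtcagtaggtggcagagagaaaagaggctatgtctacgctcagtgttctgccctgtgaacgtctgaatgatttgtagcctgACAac
Snora7a: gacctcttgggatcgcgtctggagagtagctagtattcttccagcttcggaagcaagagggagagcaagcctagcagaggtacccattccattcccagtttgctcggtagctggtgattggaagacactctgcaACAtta
Snora81: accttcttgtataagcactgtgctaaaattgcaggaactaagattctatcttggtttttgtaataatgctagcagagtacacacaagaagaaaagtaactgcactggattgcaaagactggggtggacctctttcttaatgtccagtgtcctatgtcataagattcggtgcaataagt

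Searched on the RNA strand alone, the pair of TGATG within the first 25 bases and CTGA within the last 20 was held by 60 of the 73 C/D box snoRNAs with an annotated sequence (82.2%) and by 0 of 36 H/ACA box snoRNAs. ACA within the last 8 bases was held by 34 of 36 H/ACA box snoRNAs (94.4%) and 8.22% of C/D box snoRNAs. For comparison, windows of 80 bases cut from 32851 RefSeq promoter sequences held the first pair in 0.219% of cases, and windows of 132 bases ended with the ACA in 9.13%. AATTTTT stood in 1.84% of promoter windows of 150 bases, and CTAACCC in 0.295% of windows of 60 bases. The classes named by symbol therefore carried the boxes that define them in most cases, and a missing match says only that these letters are not in that window.

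Each library held between 41397315 and 53714288 reads assigned to genes, and the unit is CPM, reads per 1000000 of these. A single read equals 0.0186 to 0.0242 CPM depending on the library, and a count of 0 allowed up to 3 reads, or 0.0559 to 0.0725 CPM. These limits cover counting error only, because reads are not independent molecules. The hairpin targets followed the labels: Map2k5 averaged 14.2 ± 0.216 CPM in shMEK5, 36.7 ± 0.475 CPM in shERK5 and 36.3 ± 0.997 CPM in shCTRL libraries, and Mapk7 averaged 19.5 ± 1.19, 6.53 ± 0.173 and 26.8 ± 1.61 CPM in the same groups (SD, n = 2, 3 and 3). All 5 epithelial markers looked for were present, with a summed level of 1198 to 1261 CPM in shMEK5, 1350 to 1401 CPM in shERK5 and 1630 to 1817 CPM in shCTRL libraries. Leukocyte markers summed to at most 3.67 CPM, with Cd3e at 0 in every library, endothelial markers to at most 0.338 CPM with Kdr at 0, and the fibroblast markers Dcn and Lum and the adipocyte marker Adipoq were at 0, while Pdgfra averaged 32.1 CPM. Nothing in the labels ties the libraries of a group to separate cultures, and every p-value below therefore covers the spread among these libraries alone, which could be technical. In bulk RNA, fewer cells with an RNA and less of it per cell cannot be told apart.

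Most of the small RNAs had few reads assigned to them, and a pair of them made up nearly all of the reads. Reads were found for 117 of the 126, and 9 were at 0 in all libraries: Snord118 (U8, an RNA needed for maturation of the large ribosomal subunit), Snord14c, Snord14d, Snord116l1, Snord116l2, Snord123, Snora35, Rnu6 and Rnu7. How the authors counted reads that match several genes or overlapping genes is not stated. A value of 0 therefore does not show that an RNA was absent from the cells. Together the 126 took between 1.32% and 1.86% of the reads of a library, of which Rpph1 made up 69.0% and Rmrp 26.7%. Per kilobase of annotated RNA, Rpph1 stood at 32595 CPM and Rmrp at 14318 CPM. Scarna13 followed at 669 CPM, Snora74a at 607 CPM, Snord17 at 302 CPM and Scarna10 at 221 CPM, with Terc at 19.0 CPM. These values do not correct for the poorer recovery of short RNAs, so they compare RNAs of different length only roughly. The value of Scarna10 uses the GENCODE length of 325 nt, where RefSeq gives 71 nt.

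A level of 1 CPM in at least 2 libraries, the minimum for testing, was reached by 48 small RNAs: 17 C/D box snoRNAs, 22 H/ACA box snoRNAs, 4 scaRNAs, Rnu11, Rnu12, Rmrp, Rpph1 and Terc. The other 78 fell below it, and 69 of these had reads, with a median of 74 and at most 310 reads over all 8 libraries. In 42 cases 1 CPM was reached in at least 1 library of each of the 3 groups. In 4 (Snord83b, Snord35a, Snord72 and Snora5c) it was reached in shMEK5 and shCTRL libraries but not in shERK5 libraries. In 2 (Snord49a and Snord95) it was reached in shCTRL libraries alone. Those 6 were tested because of the groups in which they were higher. Just inside the minimum stood Snord49a, Snord95 and Snora5c, with 2 libraries at 1 CPM or more, and just outside it Snord73b, Snord65, Snord69, Snora61 and Snora31, with 1.

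Longer small RNAs were read at higher levels. Of the 66 RNAs under 100 nt, 13 reached the minimum and their median level over libraries was 0.314 CPM; of the 48 with at least 100 and under 150 nt, 23 reached it, with a median of 0.803 CPM; all 4 with at least 150 and under 200 nt and all 8 of 200 nt or more reached it, with medians of 7.24 and 71.9 CPM. These bands were chosen after the values were seen. Per kilobase the medians of the 4 bands were 4.18, 6.13, 40.2 and 262 CPM. Across the 117 RNAs with reads, Spearman's rho of level with length was 0.483, and among the 109 under 200 nt it was 0.362; the points share the same libraries and are given as a description only.

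**Figure D1:**
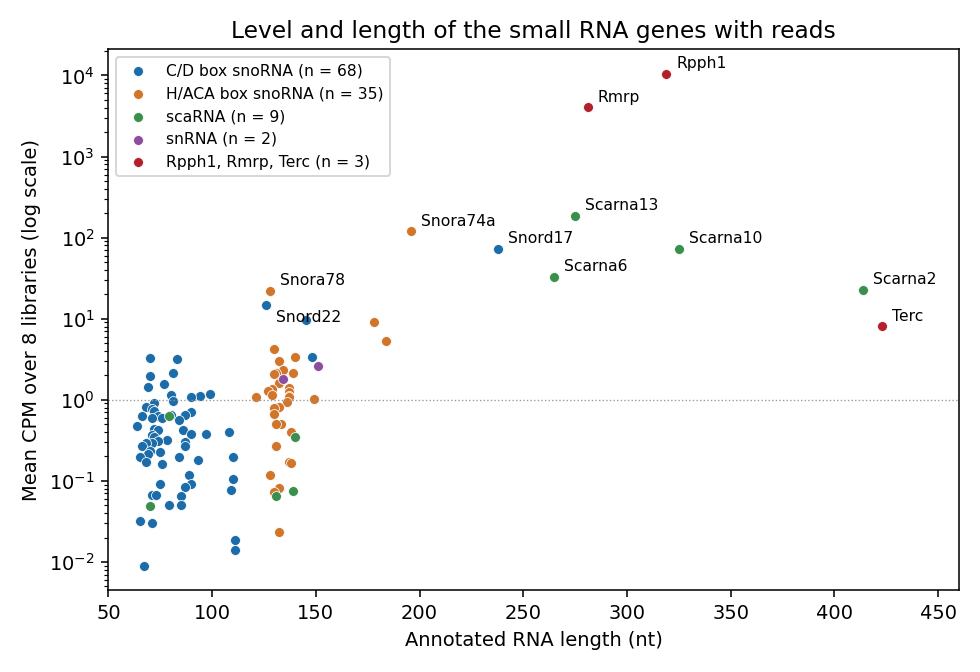
Mean level over the 8 libraries (CPM, log scale) against annotated RNA length (nt) for the 117 small RNAs with reads, 1 point per RNA, coloured by class; the dotted line marks 1 CPM. The 8 RNAs of 200 nt or more all lie above the line, and most of the plotted RNAs under 100 nt lie below it.

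In shMEK5 cells 12 of the 48 tested small RNAs were higher than in shCTRL cells, and they included the minor spliceosomal RNAs, Terc and Rpph1. None of the 13 tested ones under 100 nt was among them. Without a minimum level, Snord7 (97 nt) was called higher among the otherwise untested RNAs, and 5 others of these were called lower. In shERK5 cells 12 were lower, 8 of them C/D box snoRNAs under 100 nt, and none was higher. Among these 8, Snord35a, Snord83b and Snord95 reached 1 CPM in no shERK5 library, so the minimum for testing favoured a lower value there. Of all tested genes, 23.1% were higher and 25.6% lower in shMEK5 cells, and 32.0% were higher and 31.3% lower in shERK5 cells. The largest fold on the log2(CPM + 1) scale, where the changes of low genes come out too small, was 1.495-fold in shMEK5 (Rnu11, higher), 1.52-fold in shERK5 (Snora17, lower) and 1.51-fold between the knockdowns (Terc, lower in shERK5). On the recovered reads, with no such pseudocount, edgeR gave larger log2 fold changes for low RNAs, such as 0.89 against 0.58 for Rnu11 in shMEK5, and -0.98 against -0.49 for Snord35a and -0.90 against -0.55 for Snord47 in shERK5. The tests below are limma's moderated test over all 11623 genes that reached the minimum, with Benjamini-Hochberg adjustment over these genes and a call at an adjusted p under 0.05.

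In shMEK5 cells against shCTRL cells, 16 of the 48 tested small RNAs passed the test, or 33.3%, where 48.7% of all tested genes did. The 12 that rose were Rnu11, Rnu12, Terc, Rpph1, Scarna13, Snora81, Snora23, Snora78, Snora7a, Snora68, Snord15b and Snord17, and the 4 that fell were Snord47, Snord2, Snord95 and Snora17; among all tested genes 23.1% rose and 25.6% fell. Snord95 reached the minimum level through the shCTRL libraries alone. Among the 44 small RNAs with a mean over the 8 libraries of 1 CPM or more, a split by no group that was added after seeing the data, 12 rose and 3 fell. The median log2 fold change of the 48 was 0.04, against -0.02 over all tested genes. The count of 16 was 9 without shCTRL replicate 1, 8 without shCTRL replicate 3, 7 without shMEK5 replicate 1 and 9 without shMEK5 replicate 2, and 7 of 14 when only genes at 5 CPM or more were tested, where 49.8% of such genes passed. Without a minimum level, 17 of the 117 small RNAs with reads passed, 8 higher and 9 lower, with a median of -0.0034. Of 17283 genes, 2821 rose and 2890 fell there. Of those 17 small RNAs, 11 were among the 16 above, and the rises of Rpph1, Scarna13, Snora23, Snora78 and Snord17 were lost.

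In shERK5 cells against shCTRL cells, 12 of the 48 passed, or 25%, where 63.3% of all tested genes did. None rose and 12 fell, where 32.0% of all tested genes rose and 31.3% fell: Snord47, Snord2, Snord35a, Snord32a, Snord45c, Snord83b, Snord95, Snord104, Snora17, Snora65, Snora3 and Scarna10. At an unadjusted p under 0.05 limma gave 14, 1 of them higher; edgeR called 12 and DESeq2 11, where they called 63.2% and 62.8% of all genes, and none of these was higher. Without shCTRL replicate 2 the count was 11, and 1 of them, Rnu12, was higher. The median log2 fold change of the 48 was -0.13, against 0.0023 over all tested genes, and 40 of the 48 values were below 0. Of the 12, Snord35a, Snord83b and Snord95 reached 1 CPM in no shERK5 library, and Snord45c in 1 alone (1.01 CPM), so the filter favoured a lower value there. Of the 44 with a mean over the 8 libraries of 1 CPM or more, 11 fell and none rose, with a median of -0.12. Without a minimum level, 24 of the 117 small RNAs with reads fell and none rose, where 44.4% of 17283 genes passed and 21.5% fell. Of those 24, 11 were among the 12 above, and the other 13 were rare snoRNAs such as Snord11, Snord52, Snord53, Snord93 and Snora47. With only genes at 5 CPM or more, 1 of 14 fell, where 65.1% of such genes passed. The shMEK5 and shERK5 values share the same 3 shCTRL libraries.

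Set against each other, shERK5 cells had lower levels than shMEK5 cells of 14 of the 48, or 29.2%, and higher levels of none, where 39.4% of all tested genes passed, 22.0% higher and 17.4% lower. The 14 were Rnu11, Terc, Rpph1, Scarna13, Scarna10, Snora81, Snora23, Snora7a, Snora68, Snora65, Snord15a, Snord15b, Snord32a and Snord34. At an unadjusted p under 0.05 limma gave 21, none of them higher, and edgeR and DESeq2 each called 16, none of them higher, where each called 38.3% of all genes. The median log2 fold change was -0.20, against 0.02 over all tested genes, and 47 of the 48 values were below 0, Scarna6 being the exception. The count was 6 without shMEK5 replicate 2, 10 without shMEK5 replicate 1 and 7 of 14 at 5 CPM or more, where 40.6% of such genes passed. Over the 3 comparisons 22 of the 48 passed in none, among them Rmrp, Scarna2, Scarna6, Snora74a and Snord22.

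**Figure D2:**
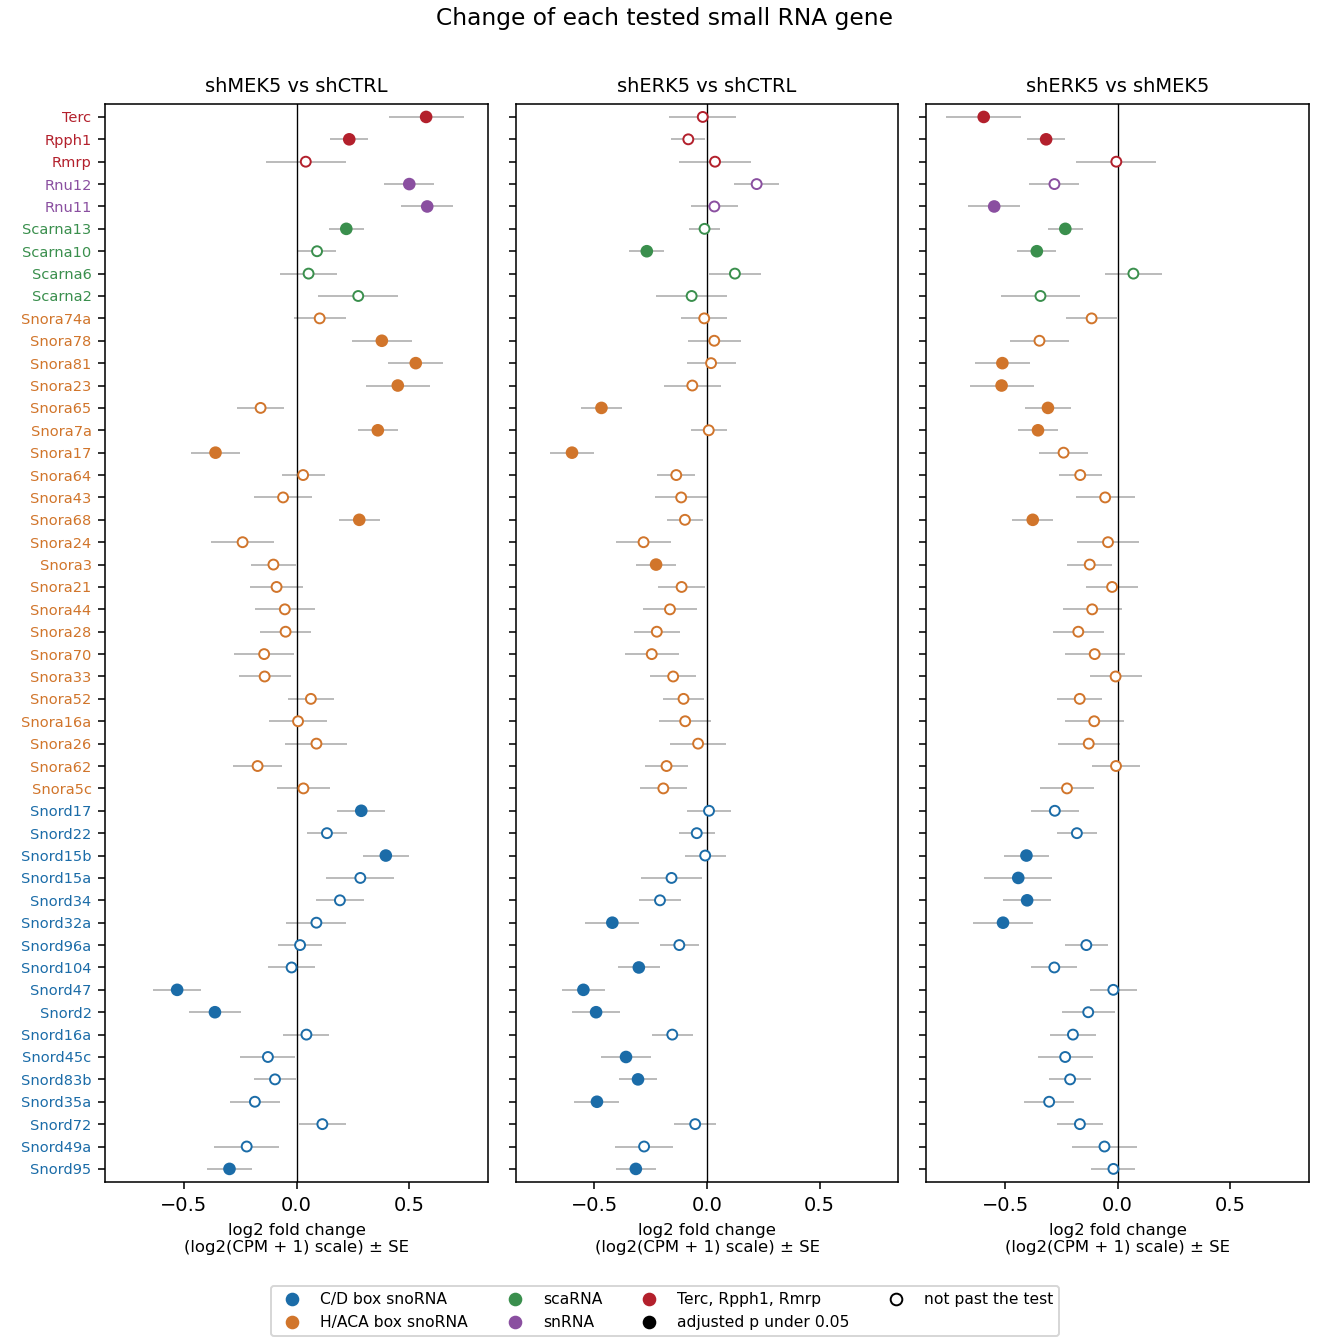
Log2 fold change ± SE (log2(CPM + 1) scale, limma) of each of the 48 tested small RNAs in shMEK5 against shCTRL, shERK5 against shCTRL and shERK5 against shMEK5, coloured by class; filled points passed an adjusted p under 0.05. In the first panel 12 filled points lie right of 0 and 4 left of it, and in the others the 12 and 14 filled points all lie left of 0.

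The U11 and U12 RNAs, which recognise the 5′ splice site and the branch point of the rare minor introns, were higher in shMEK5 cells. Rnu11 had 2.66 and 2.73 CPM in shMEK5 libraries, 1.79, 1.35 and 1.46 CPM in shERK5 libraries and 1.44, 1.78 and 1.23 CPM in shCTRL libraries. Both shMEK5 libraries lay above all 6 others, and the shERK5 and shCTRL values overlapped. The fitted log2 change was 0.58 ± 0.12 (SE) in shMEK5 against shCTRL (limma, adjusted p = 0.00217), 0.03 ± 0.10 in shERK5 against shCTRL (adjusted p = 0.803) and -0.55 ± 0.12 in shERK5 against shMEK5 (adjusted p = 0.00383). Rnu12 had 3.65 and 3.07 CPM in shMEK5 libraries, 2.51, 2.84 and 2.41 CPM in shERK5 libraries and 1.81, 2.41 and 2.04 CPM in shCTRL libraries. The shMEK5 libraries lay above all 6 others, and the shERK5 libraries overlapped the upper end of shCTRL. The modelled log2 fold change was 0.50 ± 0.11 in shMEK5 against shCTRL (limma, adjusted p = 0.00389), and it was 0.22 ± 0.10 in shERK5 against shCTRL (adjusted p = 0.0739), which did not pass except without shCTRL replicate 2. The calls of both RNAs in shMEK5, and that of Rnu11 between the knockdowns, held with each library left out in turn.

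Terc, the telomerase RNA, had 9.95 and 12.03 CPM in shMEK5 libraries, 7.60, 5.41 and 7.98 CPM in shERK5 libraries and 6.03, 8.33 and 6.85 CPM in shCTRL libraries. The shMEK5 libraries were the highest, and shERK5 replicate 2 was the lowest of all 8. The group means were 10.99 ± 1.47 CPM in shMEK5, 6.997 ± 1.39 CPM in shERK5 and 7.07 ± 1.16 CPM in shCTRL libraries (SD, n = 2, 3 and 3). On the log2 scale its change was 0.58 ± 0.17 in shMEK5 against shCTRL (limma, adjusted p = 0.0180), -0.02 ± 0.15 in shERK5 against shCTRL (adjusted p = 0.919) and -0.59 ± 0.17 in shERK5 against shMEK5 (adjusted p = 0.0189). Over all alternatives the adjusted p for shMEK5 against shCTRL ran between 0.00163 and 0.137, and the call was lost without shCTRL replicate 1, shCTRL replicate 3 or shMEK5 replicate 2. The call between the knockdowns was lost without shMEK5 replicate 2, and its adjusted p ran between 0.00145 and 0.134.

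Rpph1, the catalytic RNA of RNase P, was the most abundant of the small RNAs in every library, with 13029 and 10924 CPM in shMEK5 libraries, 9802, 9429.9 and 9492 CPM in shERK5 libraries and 9194, 10908 and 10404 CPM in shCTRL libraries. The lower shMEK5 library stood barely above the highest shCTRL library, and shERK5 and shCTRL overlapped. As a log2 fold change, its difference was 0.23 ± 0.08 in shMEK5 against shCTRL (limma, adjusted p = 0.0441), -0.08 ± 0.08 in shERK5 against shCTRL (adjusted p = 0.357) and -0.32 ± 0.08 in shERK5 against shMEK5 (adjusted p = 0.0147). The call in shMEK5 against shCTRL was lost without shCTRL replicate 1 or 3, shMEK5 replicate 1, or shERK5 replicate 2 or 3, without robust moderation, in a fit to the 2 groups alone and without a minimum level, with an adjusted p that ran between 0.0109 and 0.353 over all alternatives. The call between the knockdowns was lost without shMEK5 replicate 1, where its adjusted p reached the highest of the range between 0.00157 and 0.140.

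Rprl1, Rprl2 and Rprl3, listed apart from Rpph1 as RNase P RNA-like genes, also had reads: Rprl2 had 1063 and 908 CPM in shMEK5, 849, 666 and 815 CPM in shERK5 and 658, 965 and 857 CPM in shCTRL libraries. Rprl3 had 234 and 213 CPM in shMEK5, 154, 126 and 165 CPM in shERK5 and 133, 197 and 151 CPM in shCTRL libraries. Both shMEK5 libraries lay above all others for Rprl3, while shMEK5 and shCTRL overlapped for Rprl1 and Rprl2. The rule by which the authors assigned reads shared between such copies is not stated, so the split between Rpph1 and these genes is uncertain. Rmrp, the RNA of RNase MRP, had 4897 and 3330.1 CPM in shMEK5 libraries, 4445, 3604 and 4061 CPM in shERK5 libraries and 3342, 4182 and 4325 CPM in shCTRL libraries. The 2 shMEK5 libraries held the highest and the lowest of all 8 values, and all 3 groups overlapped. No comparison passed for Rmrp, with a log2 fold change of 0.04 ± 0.18 in shMEK5 (limma, adjusted p = 0.868) and 0.04 ± 0.16 in shERK5 against shCTRL (adjusted p = 0.861).

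**Figure D3:**
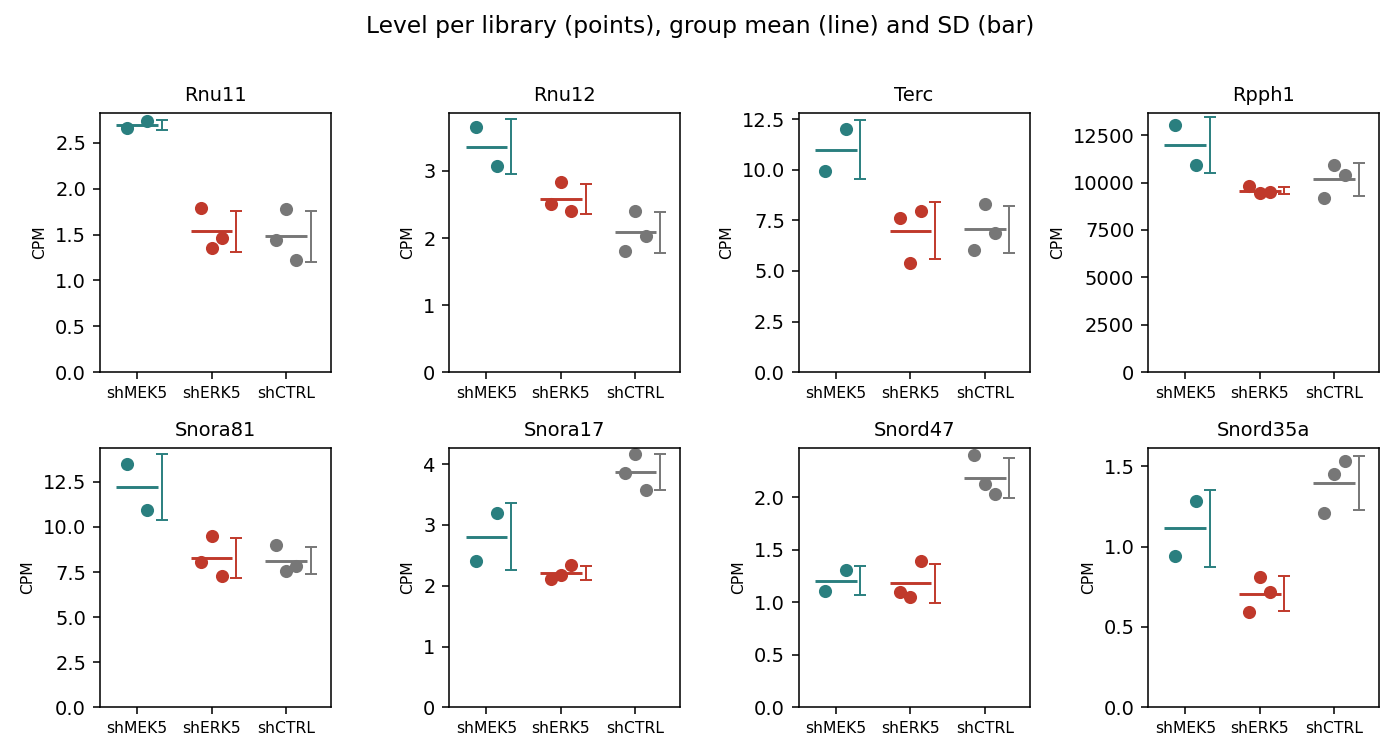
Level (CPM, axes starting at 0) of 8 small RNAs in each library of shMEK5 (n = 2), shERK5 (n = 3) and shCTRL (n = 3), with the group mean as a line and the SD as a bar. Rnu11, Terc and Snora81 stand highest in the shMEK5 libraries, Snora17 and Snord47 stand highest in the shCTRL libraries, and Snord35a stands lowest in the shERK5 libraries.

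The scaRNAs split into those that differed and those that did not. Scarna13, the most abundant of them, had 186 and 229 CPM in shMEK5 libraries, 174, 177 and 175 CPM in shERK5 libraries and 175, 185 and 171 CPM in shCTRL libraries. The shERK5 values lay within the range of shCTRL, with shMEK5 replicate 2 the highest of all libraries. The estimated log2 fold change was 0.22 ± 0.08 in shMEK5 against shCTRL (limma, adjusted p = 0.0347) and -0.23 ± 0.08 in shERK5 against shMEK5 (adjusted p = 0.0341). Both calls were lost without shMEK5 replicate 2, with adjusted p of up to 0.429 and 0.376 over the alternatives, which began at 0.00275 and 0.00344. The first call was also lost without shCTRL replicate 1 or 3 or shERK5 replicate 3, and the second without any 1 of the 3 shERK5 replicates and in a fit to the 2 groups alone. Neither passed without a minimum level.

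Scarna10 (U85), which guides modification of the U5 spliceosomal RNA, had 72.6 and 88.96 CPM in shMEK5 libraries, 57.7, 65.9 and 64.1 CPM in shERK5 libraries and 74.5, 78.4 and 73.3 CPM in shCTRL libraries. All 3 shERK5 libraries lay below all others. Its log2 fold change was -0.27 ± 0.08 in shERK5 against shCTRL (limma, adjusted p = 0.0115), a call that held under every alternative run, and -0.36 ± 0.09 in shERK5 against shMEK5 (adjusted p = 0.00784), a call lost without shMEK5 replicate 2 with an adjusted p of 0.0915. Scarna10 overlaps an exon of some transcripts of its host Ncapd2, a condensin subunit gene, which fell as well, with a log2 fold change of -0.77 in shERK5 (limma, adjusted p = 9.76e-07) and -0.33 in shMEK5 (adjusted p = 0.000900), and reads of the 2 genes could not be separated here.

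Scarna6 had 33.9 and 31.6 CPM in shMEK5 libraries, 31.7, 42.04 and 30.6 CPM in shERK5 libraries and 33.8, 28.8 and 32.1 CPM in shCTRL libraries, and the groups overlapped in every comparison. Scarna2, which guides methylation of the U2 spliceosomal RNA, had 27.2 and 25.96 CPM in shMEK5 libraries, 23.96, 16.1 and 23.1 CPM in shERK5 libraries and 18.8, 26.01 and 21.2 CPM in shCTRL libraries. The 2 shMEK5 libraries and shCTRL replicate 2 were the highest, and shERK5 replicate 2 was the lowest. Neither passed in any comparison by limma, and the smallest adjusted p were 0.366 for Scarna6 and 0.160 for Scarna2. Of the 5 scaRNAs below the minimum level none was tested.

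Among the H/ACA box snoRNAs, 5 of 22 rose and 1 fell in shMEK5 cells, 3 fell in shERK5 cells, and 5 were lower in shERK5 than in shMEK5 cells. These are 27.3%, 13.6% and 22.7% of the 22, each below the 48.7%, 63.3% and 39.4% of all tested genes that passed. Summed over all 36, their level was 217 and 204 CPM in shMEK5, 169, 204 and 173 CPM in shERK5 and 194, 188 and 191 CPM in shCTRL libraries. Most of that sum came from Snora74a (U19), which had 130.5 and 121 CPM in shMEK5 libraries, 107, 138 and 104 CPM in shERK5 libraries and 123, 108 and 120.1 CPM in shCTRL libraries. It overlapped between all groups and passed no comparison, with limma's adjusted p between 0.461 and 0.923. The shERK5 library with the highest Snora74a, replicate 2, was also the highest of all 8 for Scarna6 and the lowest for Scarna2 and Terc.

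Snora81 had 13.5 and 10.9 CPM in shMEK5 libraries, 8.04, 9.49 and 7.29 CPM in shERK5 libraries and 8.99, 7.56 and 7.86 CPM in shCTRL libraries. The shMEK5 libraries lay above all others, while shERK5 and shCTRL overlapped. The fitted log2 change was 0.53 ± 0.12 in shMEK5 against shCTRL (limma, adjusted p = 0.00468), 0.02 ± 0.11 in shERK5 against shCTRL (adjusted p = 0.897) and -0.51 ± 0.12 in shERK5 against shMEK5 (adjusted p = 0.00708). Without shMEK5 replicate 1 the first adjusted p was 0.0591 and the last 0.0901, over ranges that began at 0.000213 and 0.000438.

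Snora7a, within the ribosomal protein gene Rpl32, had 4.54 and 3.87 CPM in shMEK5 libraries, 3.18, 3.02 and 2.99 CPM in shERK5 libraries and 3.19, 2.97 and 2.98 CPM in shCTRL libraries. The shERK5 and shCTRL values lay close together, below both shMEK5 libraries. The modelled log2 fold change was 0.36 ± 0.09 in shMEK5 against shCTRL (limma, adjusted p = 0.00716) and -0.35 ± 0.09 in shERK5 against shMEK5 (adjusted p = 0.00983). Both calls were lost without shMEK5 replicate 1, where the adjusted p reached 0.0815 and 0.114, the upper ends of ranges that began at 0.00562 and 0.00782.

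Snora23, within the importin gene Ipo7, had 7.73 and 6.18 CPM in shMEK5 libraries, 4.28, 4.81 and 4.54 CPM in shERK5 libraries and 5.96, 4.75 and 3.88 CPM in shCTRL libraries. The shMEK5 libraries were the highest, and the lower of them exceeded shCTRL replicate 1 by little. On the log2 scale its change was 0.45 ± 0.14 in shMEK5 against shCTRL (limma, adjusted p = 0.0233) and -0.52 ± 0.14 in shERK5 against shMEK5 (adjusted p = 0.0152). The first call was lost without shCTRL replicate 2 or 3 or shMEK5 replicate 1 and without a minimum level, with an adjusted p that ran between 0.00432 and 0.188 over the alternatives, and the second without shMEK5 replicate 1, with a range between 0.00247 and 0.148.

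Snora78 and Snora68 also rose in shMEK5 cells. Snora78 had 26.3 and 26.9 CPM in shMEK5 libraries, 19.7, 19.2 and 23.4 CPM in shERK5 libraries and 16.8, 23.98 and 20.4 CPM in shCTRL libraries, with both shMEK5 libraries above all others and a log2 fold change of 0.38 ± 0.13 (limma, adjusted p = 0.0393). Snora68, named here as a further called RNA, had 2.61 and 2.76 CPM in shMEK5 libraries, 1.77, 1.92 and 1.82 CPM in shERK5 libraries and 1.92, 2.27 and 1.93 CPM in shCTRL libraries, with a log2 fold change of 0.28 ± 0.09 in shMEK5 against shCTRL (limma, adjusted p = 0.0273) and -0.38 ± 0.09 in shERK5 against shMEK5 (adjusted p = 0.00793). Both shMEK5 calls were lost without shCTRL replicate 1 or 3 or shMEK5 replicate 1 or 2, with adjusted p of up to 0.157 and 0.140, and as low as 0.00777 and 0.0199. That of Snora78 was also lost without a minimum level and that of Snora68 in DESeq2. The call of Snora68 between the knockdowns was lost without shMEK5 replicate 2, and its adjusted p ran between 0.00645 and 0.0574.

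Snora17 had 2.42 and 3.20 CPM in shMEK5 libraries, 2.10, 2.18 and 2.34 CPM in shERK5 libraries and 3.86, 4.16 and 3.57 CPM in shCTRL libraries. Each shERK5 library lay below each shMEK5 library, and each shMEK5 library below each shCTRL library. As a log2 fold change, its difference was -0.36 ± 0.11 in shMEK5 against shCTRL (limma, adjusted p = 0.0179) and -0.60 ± 0.10 in shERK5 against shCTRL (adjusted p = 0.000327), while the difference between the knockdowns, -0.24 ± 0.11, did not pass (adjusted p = 0.101). The shERK5 call held with each library left out, and the shMEK5 call was lost without shCTRL replicate 2 or shMEK5 replicate 1, its adjusted p running between 0.0101 and 0.191 over the alternatives.

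Snora65, within the ribosomal protein gene Rpl12, had 4.23 and 4.42 CPM in shMEK5 libraries, 3.18, 3.66 and 3.06 CPM in shERK5 libraries and 4.46, 5.59 and 4.84 CPM in shCTRL libraries. The shERK5 libraries were the lowest and the shMEK5 libraries fell just below the shCTRL range. The estimated log2 fold change was -0.47 ± 0.09 in shERK5 against shCTRL (limma, adjusted p = 0.00130), a call that held with each library left out, and -0.31 ± 0.10 in shERK5 against shMEK5 (adjusted p = 0.0362), which was lost without shCTRL replicate 3, either shMEK5 replicate, or shERK5 replicate 1 or 3, and without a minimum level (adjusted p between 0.0271 and 0.151). Snora3 had a log2 fold change of -0.23 ± 0.09 in shERK5 against shCTRL, with limma's adjusted p at 0.0473; it passed in 7 of 19 alternatives, where its adjusted p ran between 0.0167 and 0.154, and among the omissions it passed only without shERK5 replicate 3.

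Split by length, the C/D box snoRNAs had different median changes. The 4 tested ones of 100 nt or more (Snord17, Snord22, Snord15a and Snord15b) had a median log2 fold change of 0.29 in shMEK5, with 2 called higher, and -0.03 in shERK5, with none called. Of the 13 tested ones under 100 nt, 5 had reached 1 CPM only in groups where they stood higher (Snord49a and Snord95 in shCTRL, and Snord35a, Snord72 and Snord83b in shMEK5 and shCTRL). These 5 include 3 of the 8 that were called lower in shERK5, and Snord45c reached 1 CPM in 1 shERK5 library alone. Counts and medians of the short C/D box snoRNAs are therefore given as a description only. The 10 with a mean over the 8 libraries of 1 CPM or more had a median of -0.06 in shMEK5, with 2 called lower, and -0.33 in shERK5, with 7 called lower. Of all tested genes, 48.7% passed in shMEK5 (23.1% higher, 25.6% lower) and 63.3% in shERK5 (32.0% higher, 31.3% lower). Summed over all 63 C/D box snoRNAs under 100 nt, tested or not, the level was 33.2 and 38.9 CPM in shMEK5, 26.5, 29.7 and 28.5 CPM in shERK5 and 39.9, 41.7 and 40.3 CPM in shCTRL libraries. The 3 groups did not overlap in this sum, with shERK5 the lowest. Over the 48 tested small RNAs of all classes, Spearman's rho of log2 fold change with length was 0.531 in shMEK5, 0.609 in shERK5 and -0.186 between the knockdowns, and with mean level 0.571, 0.487 and -0.401; length and level went together, and their part in the result was not tested.

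Snord17, the most abundant C/D box snoRNA, had 87.3 and 78.6 CPM in shMEK5 libraries, 61.2, 80.6 and 64.04 CPM in shERK5 libraries and 68.6, 64.8 and 69.8 CPM in shCTRL libraries. Both shMEK5 libraries lay above the shCTRL libraries, and shERK5 replicate 2 lay between the 2 shMEK5 values. Its log2 fold change of 0.29 ± 0.11 in shMEK5 was at the threshold (limma, adjusted p = 0.0499) and passed in 9 of 20 alternatives; it was lost without any 1 of the shCTRL or shMEK5 replicates and without shERK5 replicate 3, with pseudocounts of 0.1 and 0.5, without a minimum level and with one of 5 CPM, and its adjusted p ran between 0.00393 and 0.256. Snord22 (U22), known in frog oocytes to be needed for 18S ribosomal RNA processing, had 15.7 and 16.9 CPM in shMEK5 libraries, 13.7, 13.7 and 15.2 CPM in shERK5 libraries and 13.6, 16.3 and 14.4 CPM in shCTRL libraries. It passed in no comparison by limma, with adjusted p between 0.131 and 0.633.

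Snord15b and Snord15a are related C/D box RNAs within Rps3, Snord15a in an intron and Snord15b over an exon of some transcripts, so that host reads may be counted with Snord15b. Snord15b had 11.5 and 12.7 CPM in shMEK5 libraries, 9.31, 8.98 and 8.34 CPM in shERK5 libraries and 8.32, 10.3 and 8.28 CPM in shCTRL libraries. The shMEK5 libraries were the highest, with a log2 fold change of 0.40 ± 0.10 in shMEK5 against shCTRL (limma, adjusted p = 0.00855) and -0.41 ± 0.10 in shERK5 against shMEK5 (adjusted p = 0.00951). Both were lost without shMEK5 replicate 2, where the adjusted p reached 0.0784 and 0.0814, from 0.00202 and 0.00168 at the low ends. Snord15a had 4.30 and 4.12 CPM in shMEK5 libraries, 2.81, 2.48 and 3.26 CPM in shERK5 libraries and 2.54, 4.23 and 3.24 CPM in shCTRL libraries, with shCTRL replicate 2 in the shMEK5 range. Its value in shMEK5, 0.28 ± 0.15, did not pass (limma, adjusted p = 0.143), and its difference of -0.44 ± 0.15 in shERK5 against shMEK5 (adjusted p = 0.0392) was lost without shCTRL replicate 3, either shMEK5 replicate, or shERK5 replicate 1 or 2, and without a minimum level (adjusted p between 0.0149 and 0.172). The ratio of Snord15b to Snord15a averaged 2.87 ± 0.281 in shMEK5, 3.16 ± 0.546 in shERK5 and 2.76 ± 0.457 in shCTRL libraries.

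Snord47, one of several snoRNAs within Gas5, a noncoding host gene, was lower in both knockdowns. It had 1.11 and 1.30 CPM in shMEK5 libraries, 1.10, 1.05 and 1.39 CPM in shERK5 libraries and 2.40, 2.13 and 2.04 CPM in shCTRL libraries. Every shCTRL library lay above every knockdown library, and the knockdowns overlapped. Its log2 fold change was -0.53 ± 0.11 in shMEK5 (limma, adjusted p = 0.00204) and -0.55 ± 0.09 in shERK5 (adjusted p = 0.000513), and both calls held with each library left out. Between the knockdowns it was -0.02 ± 0.11 (adjusted p = 0.905).

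Snord2, within the translation factor gene Eif4a2, had 1.14 and 1.39 CPM in shMEK5 libraries, 0.912, 1.05 and 1.24 CPM in shERK5 libraries and 1.58, 2.13 and 2.04 CPM in shCTRL libraries. All 5 knockdown libraries lay below the lowest shCTRL library. The fitted log2 change was -0.36 ± 0.12 in shMEK5 (limma, adjusted p = 0.0260) and -0.49 ± 0.10 in shERK5 (adjusted p = 0.00204). The shERK5 call held with each library left out, and the shMEK5 call was lost without shCTRL replicate 2 or 3 or shMEK5 replicate 1 and in DESeq2, with adjusted p between 0.0113 and 0.168. Snord95, within Rack1, had 0.628 and 0.715 CPM in shMEK5 libraries, 0.540, 0.695 and 0.720 CPM in shERK5 libraries and 1.06, 1.15 and 0.963 CPM in shCTRL libraries. All knockdown libraries lay below all shCTRL libraries, and as it reached the minimum level through the shCTRL libraries alone, it could be tested only because it was higher there. Its log2 fold changes of -0.30 ± 0.10 in shMEK5 and -0.32 ± 0.09 in shERK5 are therefore given with the adjusted p of the fit without a minimum level, which did not depend on that choice: limma gave adjusted p = 0.0142 in shMEK5 and adjusted p = 0.00442 in shERK5. With the minimum, the shMEK5 call was lost without either shMEK5 replicate and in DESeq2, with adjusted p between 0.0142 and 0.141. Leaving out shCTRL replicate 1 or 2 took Snord95 below the minimum level, and the shERK5 call held under the other 6 omissions.

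Introns of the ribosomal protein gene Rpl13a hold a cluster of C/D box snoRNAs that in mouse and hamster cells are known as mediators of the response to lipid overload. Snord32a had 3.31 and 4.38 CPM in shMEK5 libraries, 1.97, 2.95 and 2.29 CPM in shERK5 libraries and 3.77, 3.35 and 3.48 CPM in shCTRL libraries. The shERK5 libraries were the lowest, and shMEK5 and shCTRL overlapped. On the log2 scale its change was -0.42 ± 0.12 in shERK5 against shCTRL (limma, adjusted p = 0.0104), which held with each library left out, and -0.51 ± 0.13 in shERK5 against shMEK5 (adjusted p = 0.0118), which was lost without shMEK5 replicate 2 (adjusted p between 0.00320 and 0.122). Snord35a had 0.942 and 1.28 CPM in shMEK5 libraries, 0.596, 0.808 and 0.720 CPM in shERK5 libraries and 1.21, 1.45 and 1.53 CPM in shCTRL libraries, again lowest in the shERK5 libraries. As a log2 fold change, its difference was -0.49 ± 0.10 in shERK5 (limma, adjusted p = 0.00159, and 0.00284 without a minimum level), held with each library left out, and -0.18 ± 0.11 in shMEK5 (adjusted p = 0.193), which did not pass.

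Snord34 had 3.36 and 4.52 CPM in shMEK5 libraries, 2.61, 2.72 and 2.81 CPM in shERK5 libraries and 3.19, 3.27 and 3.42 CPM in shCTRL libraries, with a log2 fold change of -0.21 ± 0.10 in shERK5 against shCTRL (limma, adjusted p = 0.0760) and -0.40 ± 0.11 in shERK5 against shMEK5 (adjusted p = 0.0123). The shERK5 libraries lay below all others, and the second value passed except without shMEK5 replicate 2 (adjusted p between 0.00481 and 0.143). Snord33 of the same cluster was below the minimum level, at 0.531 and 0.631 CPM in shMEK5, 0.298, 0.507 and 0.630 CPM in shERK5 and 0.519, 0.678 and 0.744 CPM in shCTRL libraries, where the groups overlapped. Rpl13a itself had a log2 fold change of 0.16 in shMEK5 (limma, adjusted p = 0.0241) and 0.20 in shERK5 (adjusted p = 0.00242), so the host was higher where Snord32a and Snord35a were lower.

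The remaining short C/D box snoRNAs that fell in shERK5 cells were Snord104, Snord45c and Snord83b. Snord83b had 1.09 and 1.24 CPM in shMEK5 libraries, 0.801, 0.977 and 0.832 CPM in shERK5 libraries and 1.29, 1.31 and 1.34 CPM in shCTRL libraries, and its log2 fold change of -0.31 ± 0.08 in shERK5 (limma, adjusted p = 0.00789, and 0.00571 without a minimum level) held with each library left out. Snord45c had 0.942 and 1.47 CPM in shMEK5 libraries, 0.801, 1.01 and 0.787 CPM in shERK5 libraries and 1.23, 1.43 and 1.53 CPM in shCTRL libraries, with a log2 fold change of -0.36 ± 0.11 (limma, adjusted p = 0.0147) that was lost without shCTRL replicate 3 or shERK5 replicate 3 (adjusted p between 0.00776 and 0.0540). Snord104, which lies in no host gene on its strand, had 2.39 and 1.91 CPM in shMEK5 libraries, 1.62, 1.71 and 1.44 CPM in shERK5 libraries and 2.40, 2.08 and 2.10 CPM in shCTRL libraries, with a log2 fold change of -0.30 ± 0.09 (limma, adjusted p = 0.0146) that was lost without shCTRL replicate 1 or shERK5 replicate 3 (adjusted p between 0.0129 and 0.0571). In each of the 3, every shERK5 library lay below every shCTRL library.

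The 78 small RNAs below the minimum level, summed, had 21.0 and 21.5 CPM in shMEK5, 15.7, 17.5 and 18.04 CPM in shERK5 and 22.7, 25.7 and 23.5 CPM in shCTRL libraries. The shERK5 libraries were lowest and the 3 groups did not overlap, as in the sum of the short C/D box snoRNAs, most of which are among them. Summed over all 74 C/D box snoRNAs, where Snord17 dominates, the level was 153 and 152 CPM in shMEK5, 114, 136 and 120 CPM in shERK5 and 134, 138 and 137 CPM in shCTRL libraries, and shERK5 and shCTRL overlapped.

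Because most snoRNAs are released from a host transcript, each was set beside its host. A host gene that was itself tested was found for 40 of the 48, in 33 hosts. For 3 of them (Snora74a, Snora17 and Snora43) the host is the gene whose RefSeq span holds them, with the strand not compared. The 40 include Snord35a, Snord49a, Snord72, Snord83b, Snord95 and Snora5c, which reached 1 CPM in no shERK5 library. The minimum level favoured a lower value in shERK5 for these RNAs, so the counts and medians below are given as a description only. Most of these small RNAs were low and most hosts were not, and log2(CPM + 1) makes changes of low genes too small. Small RNA and host are therefore compared only roughly. In shERK5 against shCTRL, the fold change of the small RNA lay below that of its host in 30 of 40 cases, with a median of -0.16 for the small RNAs and 0.02 for their hosts. Of the 11 that fell and had a host, Snora17 among them, the host rose in 5, fell in 2 and passed in neither direction in 4. Snord35a, Snord83b and Snord95 are among the 11, and the hosts of Snord35a and Snord95 are among those that rose. Among the small RNAs with a host that did not pass, the host rose in 9, fell in 6 and did not pass in 14. Of all tested genes 32.0% rose and 31.3% fell. In shMEK5 against shCTRL the small RNA lay below its host in 17 of 40 cases, and of the 7 that rose and had a host, the host rose in 2, fell in 2 and did not pass in 3. There 23.1% of all tested genes rose and 25.6% fell. In shERK5 against shMEK5 the small RNA lay below its host in 36 of 40 cases, where 47 of the 48 tested small RNAs had a value below 0. Of the 11 that were lower and had a host, the host was higher in 2, lower in 1 and did not pass in 8. Between the knockdowns 22.0% of all tested genes were higher and 17.4% lower in shERK5. Spearman's rho between the fold changes of small RNA and host was -0.118 in shMEK5 against shCTRL, -0.221 in shERK5 against shCTRL and 0.350 in shERK5 against shMEK5 over these 40 pairs, some of which share a host, and is given as a description. Of all 126, 53 overlap an exon of some transcript of a host, so that reads of spliced host RNA may be counted with them, and 60 lie in introns only. Among the RNAs called in any comparison, those over an exon are Snord2, Snord15b, Snord45c, Snord47, Snord95, Snora3, Snora7a, Snora65, Snora68, Snora81 and Scarna10.

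**Figure D4:**
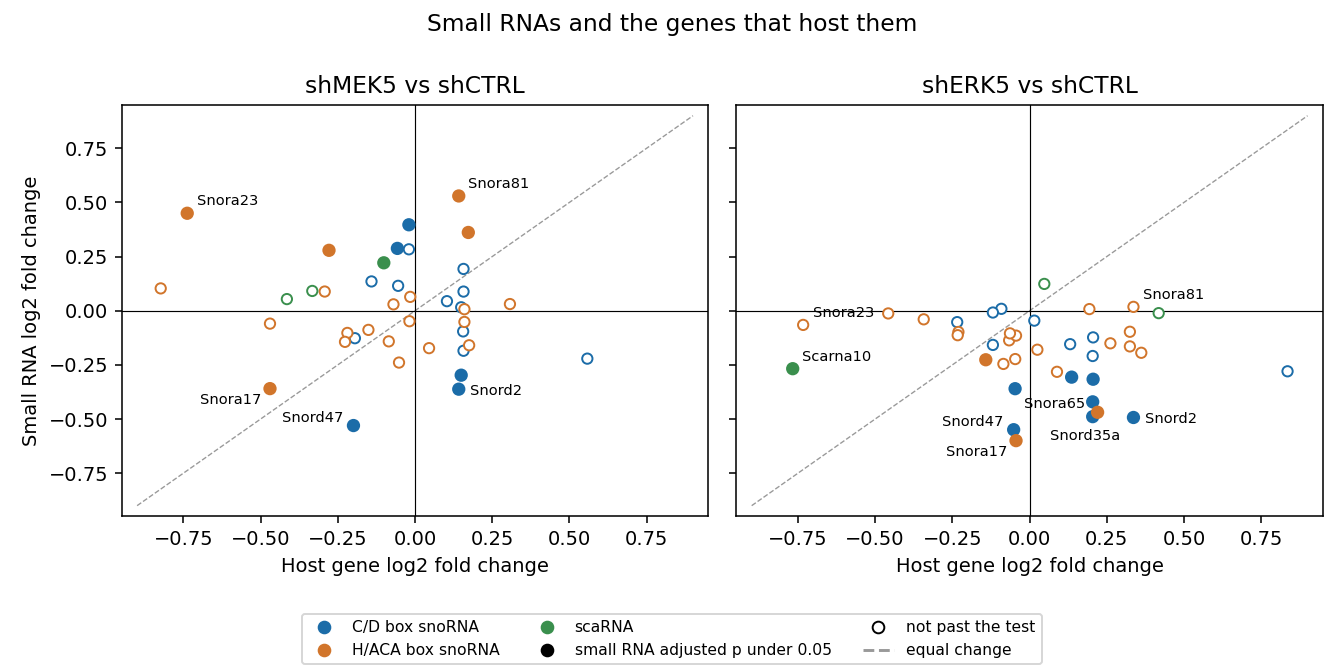
Log2 fold change (log2(CPM + 1) scale) of the small RNA against that of its host gene for 40 pairs, in shMEK5 against shCTRL (left) and shERK5 against shCTRL (right); filled points are small RNAs with an adjusted p under 0.05 and the dashed line marks equal change. On the right 30 of the 40 points lie below the line, and Snord2 and Snora81, which share the host Eif4a2, lie apart in both panels.

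Eif4a2 carries Snord2 and Snora81 in the same transcript and on the same strand. Eif4a2 had a log2 fold change of 0.14 in shMEK5 (limma, adjusted p = 0.0251) and 0.34 in shERK5 (adjusted p = 4.99e-05). The ratio of Snora81 to Snord2 was 11.9 and 7.88 in shMEK5, 8.82, 9.02 and 5.89 in shERK5 and 5.71, 3.55 and 3.86 in shCTRL libraries, so every knockdown library exceeded every shCTRL library. The exact permutation test over libraries, two-sided, gave p = 0.2 for shMEK5 (n = 2 and 3) and p = 0.1 for shERK5 (n = 3 and 3), the smallest that these numbers of libraries allow. Snora81 and Snord2 were already called in opposite directions in shMEK5 in these same libraries, so the ratio and its p-values are given as a description only. Both RNAs overlap an exon of some Eif4a2 transcripts.

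Ipo7 and Snora23 moved apart, the host with a log2 fold change of -0.74 in shMEK5 (limma, adjusted p = 0.00237) where Snora23 rose. Gas5, the host of Snord47, had -0.20 in shMEK5 (adjusted p = 0.0342) and -0.05 in shERK5 (adjusted p = 0.483, limma), which did not pass. Snora17 and Snora43 lie within the RefSeq span of Snhg7, and their strand was not compared with it. Snhg7 had -0.47 in shMEK5 (limma, adjusted p = 0.000460) and -0.04 in shERK5 (adjusted p = 0.575). Snora43 had 2.32 and 1.98 CPM in shMEK5 libraries, 1.73, 2.59 and 1.82 CPM in shERK5 libraries and 2.11, 2.15 and 2.58 CPM in shCTRL libraries, and passed in no comparison. The ratio of Snora17 to Snora43 averaged 1.33 ± 0.407 in shMEK5, 1.11 ± 0.239 in shERK5 and 1.71 ± 0.293 in shCTRL libraries. An exact two-sided permutation test gave p = 0.1 for shERK5 against shCTRL (n = 3 and 3), the smallest that these numbers allow. Snora17 was already called lower in shERK5 in these same libraries, so this p-value is given as a description only.

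The proteins that bind and assemble these RNAs, given as lists of known components, were read from the same test, in which 48.7% of all tested genes passed in shMEK5 (23.1% higher, 25.6% lower) and 63.3% in shERK5 (32.0% higher, 31.3% lower) against shCTRL. Of 12 C/D box snoRNP genes, shMEK5 cells had 5 higher and 1 lower, and shERK5 cells had 6 higher and 1 lower, than shCTRL cells, or 50% and 58.3% of the list, near the shares of all genes, with median log2 fold changes of 0.18 and 0.16. Nop56, a core protein of the particle, had 0.61 in shMEK5 (limma, adjusted p = 0.000101) and 0.70 in shERK5 (adjusted p = 9.24e-06), and the assembly factors Nufip1 and Znhit6 had 0.34 and 0.45 in shERK5 (adjusted p = 0.000497 and 0.000472).

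Of 9 H/ACA particle and telomerase genes, 2 were higher and 1 was lower in shMEK5 than in shCTRL cells, and 1 was higher and 2 were lower in shERK5 cells, or 33.3% of the list in each, with medians of 0.15 and 0.12. Nop10, a core protein, had 0.58 in shMEK5 (limma, adjusted p = 5.08e-05) and 0.61 in shERK5 (adjusted p = 8.42e-06). Tert, the catalytic subunit that works with Terc, had -0.35 in shMEK5 (adjusted p = 0.00648, limma) and -0.30 in shERK5 (adjusted p = 0.00648), so that in shMEK5 cells Tert fell and Terc rose. The pseudouridine synthase gene Dkc1 had -0.22 in shERK5 (limma, adjusted p = 0.0344).

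Of 25 genes of Sm and Lsm proteins and the SMN complex, which load the protein ring onto small nuclear RNAs, 12 rose and 2 fell in shMEK5 cells, in shERK5 cells 9 rose and 6 fell, and 1 was higher and 7 lower in shERK5 than in shMEK5, with medians of 0.16, 0.012 and -0.10. The shares that passed, 56%, 60% and 32%, stand beside 48.7%, 63.3% and 39.4% of all genes. Gemin6, a subunit of the SMN complex, had 0.70 in shMEK5 (limma, adjusted p = 8.8e-06) and 0.43 in shERK5 (adjusted p = 5.6e-05). Gemin7, of the same complex, had -0.44 in shERK5 (limma, adjusted p = 5.66e-05) and did not pass in shMEK5 (adjusted p = 0.999). Lsm10, of the U7 particle, had -0.50 in shMEK5 and -0.78 in shERK5 (limma, adjusted p = 0.000689 and 9.77e-06). Of 27 genes for small nuclear RNA transcription and 3′ end formation, shMEK5 cells had 1 higher and 10 lower, and shERK5 cells 4 higher and 10 lower, or 40.7% and 51.9%, with medians of -0.14 and -0.08. The Integrator subunit gene Ints4 had -0.34 in shMEK5 (limma, adjusted p = 0.0150) and -1.30 in shERK5 (adjusted p = 1.06e-06), and Zfp143, a transcription factor of small nuclear RNA promoters, had 0.98 and 0.81 (adjusted p = 5e-06 and 3.96e-06). Of the 10 tested protein genes of RNase P and RNase MRP, shMEK5 cells had 5 higher and 1 lower, and shERK5 cells 6 higher and 2 lower, or 60% and 80%, with medians of 0.13 and 0.14. Rpp40 had 0.49 and 0.57 and Pop1 -0.42 and -0.27 (limma, adjusted p of at most 0.000604). Each of these shMEK5 and shERK5 values uses the same shCTRL libraries. Between the knockdowns, shERK5 cells had 1 C/D box snoRNP gene higher and 1 lower (16.7%), and none of the 9 H/ACA and telomerase genes passed. Of the 27 small nuclear RNA transcription and 3′ end genes, 7 were higher and 4 lower (40.7%). Of the RNase P and RNase MRP genes, 1 was higher and 1 lower (20%).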

How the data were processed

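Total RNA of 8 libraries was measured. The authors deposited CPM, reads per 1000000 reads assigned to genes, for 24454 genes listed by Entrez number; alignment used STAR and the build mm10, per the submitters' processing notes, while the labels name no counting program, annotation or strand setting. RNeasy columns are known to retain RNAs above about 200 nt best, and standard libraries read short RNAs poorly; whether recovery was alike in the 3 groups was not tested.

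Symbols came from a RefSeq table (24374 matched, 80 did not), and strand, length, host and sequence from GENCODE M21 (GRCm38), which matched 125 of the 126 small RNAs. Dividing by the value of 1 read gave a whole number, to within 0.01, for 100% of the CPM values above 0. The test was limma 3.58.1 (R 4.3.3) with trend and robust moderation on log2(CPM + 1), fitted to all 8 libraries without covariates, on 11623 genes at 1 CPM or more in at least 2 libraries. Steps were tested on simulated data. Chi-square per degree of freedom between replicates was 7.72 to 39.1, above sampling noise, so none was counted as a duplicate.

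Alternatives were edgeR 4.0.16 and DESeq2 1.42.0 on the recovered reads, other scalings, pseudocounts and minimum levels, fewer libraries and a replicate block. The genes named are every tested RNA outside the Snord, Snora and Scarna families, the 6 most abundant of each family, up to 4 called RNAs with the highest and lowest fold change per comparison, their hosts, up to 4 genes of each protein list with the smallest adjusted p in shERK5, and the hairpin targets; Snord33, Snord45c, Snord83b, Snord104, Snora3, Snora43 and Snora68 were added after their values were seen. The RNAs and lists were chosen with earlier results of these data known.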

Additional observations from a re-analysis of the deposited data

How the results depend on the processing

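The number of small RNAs called in shMEK5 against shCTRL was 16, and stayed between 13 and 17 under TMM and RLE scaling, library sizes without the small RNAs, pseudocounts of 0.1 and 0.5, no minimum level, edgeR, DESeq2, limma without robust moderation and a fit to the 2 groups alone; it was 7 with a minimum of 5 CPM, which leaves 14 small RNAs to test. In shERK5 against shCTRL it was 12, and 11 or 12 under these alternatives apart from 24 without a minimum level and 1 with a minimum of 5 CPM. In shERK5 against shMEK5 it was 14, and 14 to 17 apart from 7 with a minimum of 5 CPM. The directions moved more than the count in shMEK5 against shCTRL: 12 rose and 4 fell in the main test. Without a minimum level, 8 rose and 9 fell there, and 11 of these 17 calls were shared with the main test. Counting only small RNAs with a mean over the 8 libraries of 1 CPM or more, chosen after seeing the data, gave 15, 11 and 14. With each library left out in turn the counts ran from 7 to 16, from 9 to 13 and from 6 to 17 in these comparisons. The summed level of the C/D box snoRNAs in shMEK5 was 152.29 CPM, against 154.04 CPM with TMM, 153.94 CPM with RLE and 154.9 CPM with library sizes without the small RNAs; that of the H/ACA box snoRNAs in shCTRL was 191.03 CPM, against 193.89 CPM with library sizes without the small RNAs. The changes follow from the scaling factors.

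Replicate numbers from the titles were not treated as pairs: same-numbered shCTRL and shERK5 libraries deviated with correlations of -0.0648, -0.191 and 0.169, shCTRL and shMEK5 with -0.130 and 0.0312, and shMEK5 and shERK5 with 0.465 and 0.518. With the number as a replicate block the counts were 14 (9 higher, 5 lower), 12 and 15. In shMEK5 13 of the 16 calls were shared with the unblocked fit (Rpph1, Snora23 and Snord17 lost, Snord49a gained), in shERK5 11 of 12 (Snora3 lost, Snord49a gained) and between the knockdowns 13 of 14 (Snord15a lost, Snora78 and Snord35a gained).

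Among the 26 small RNAs named by the rule above, the log2 fold changes that changed sign did so when a library was left out, and none of them was called. Sign changes of other small RNAs, such as those added after their values were seen, are not listed here. In shMEK5 against shCTRL they ran from -0.24 to 0.32 for Rmrp, -0.0537 to 0.24 for Scarna10, -0.00833 to 0.10 for Scarna6 and -0.0712 to 0.25 for Snord32a. In shERK5 against shCTRL they ran from -0.0805 to 0.11 for Rmrp, -0.0431 to 0.12 for Rnu11, -0.0370 to 0.0205 for Scarna13, -0.17 to 0.10 for Scarna2, -0.0168 to 0.21 for Scarna6, -0.19 to 0.0657 for Snora23, -0.14 to 0.0612 for Snora74a, -0.0933 to 0.15 for Snora78, -0.0132 to 0.0328 for Snora7a, -0.0745 to 0.0953 for Snora81, -0.0573 to 0.0861 for Snord15b, -0.11 to 0.0850 for Snord17, -0.0985 to 0.0229 for Snord22 and -0.11 to 0.13 for Terc. In shERK5 against shMEK5 they ran from -0.28 to 0.27 for Rmrp, -0.0704 to 0.15 for Scarna6, -0.0880 to 0.0440 for Snord47 and -0.0563 to 0.0310 for Snord95. RNAs with under 310 reads in all limit what can be seen at this depth.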

Other observations

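Values are also given for genes that work with other small RNAs, and for their polymerase, beside the 48.7% of all tested genes that passed in shMEK5 and the 63.3% in shERK5 against shCTRL. Of 10 genes of the signal recognition particle and its receptor, which direct ribosomes to the endoplasmic reticulum, shMEK5 cells had 2 higher and 2 lower and shERK5 cells 5 higher and none lower than shCTRL cells, or 40% and 50%, with median log2 fold changes of -0.10 and 0.13. At an adjusted p under 0.05 by limma, Srprb, a receptor subunit gene, had 0.49 in shMEK5 and 0.67 in shERK5, and Srpr, which encodes the other subunit, had -0.28 in shMEK5 and 0.22 in shERK5. Of 7 genes of the 7SK particle and the elongation factor P-TEFb, shMEK5 cells had 3 lower and shERK5 cells 5 lower and neither had any higher, or 42.9% and 71.4%, with medians of -0.12 and -0.26. Hexim1, the inhibitor that 7SK RNA activates, averaged 16.7 ± 0.182 CPM in shMEK5, 18.9 ± 2.13 CPM in shERK5 and 30.4 ± 4.36 CPM in shCTRL libraries (SD, n = 2, 3 and 3). Between the knockdowns, shERK5 cells had 5 signal recognition particle genes higher and 0 lower (50%). Of the 7SK and P-TEFb genes, 1 was higher and 0 were lower (14.3%), where 39.4% of all tested genes passed.

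Of 14 genes of RNA polymerase III and its factors, which transcribe Rpph1 and Rmrp, shMEK5 cells had 3 higher and 3 lower and shERK5 cells 3 higher and 6 lower, or 42.9% and 64.3%, with medians of -0.06 and -0.12. Maf1, a repressor of this polymerase, had log2 fold changes of -0.48 and -0.66 in shMEK5 and shERK5, and Polr3k, a subunit gene, had 0.31 and -0.28, with limma's adjusted p at most 0.000646 in these 4 cases. Between the knockdowns, 2 of the 14 were higher and 3 lower in shERK5 cells (35.7%).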
